A study of Homo sapiens with 12 samples.

Results

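The Krüppel-like factors are zinc finger proteins that bind GC-rich and CACCC-rich DNA near the start of genes, where different members activate or repress transcription through different partner proteins. Their genes are regulated by growth factors, stress, flow and hormones, and in liver cells they are known for roles in growth control, in the response to injury and in metabolism. The genes described here were KLF2, KLF3, KLF4, KLF5, KLF6, KLF9, KLF10, KLF11, KLF13 and KLF15. Every probe set that the array's annotation gives to 1 of these symbols alone was taken, which yielded 29 probe sets of 10 genes among 54613 tested probe sets.

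Gene expression was measured on 12 Affymetrix whole-genome arrays of 2 human hepatocellular carcinoma cell lines, with 3 arrays in each of 4 groups. HEP3B cells, which the labels call sensitive, received 2 µM of DAAD2 (a dehydroabietylamine derivative carrying N-acetyl cysteine, written DAAD-2 in the labels) or 0.1% DMSO for 72 h. SNU449 cells, which the labels call resistant, received 20 µM of DAAD2 or 0.1% DMSO for the same time. The dose therefore differed between the lines, so line and dose cannot be told apart wherever the responses of the lines are compared. The labels do not give the DMSO content of the DAAD2 cultures, so it may differ from that of the controls. The labels state treatment in triplicate but not whether the plates were grown at separate times, and p-values measure only the spread between these arrays, which may be technical. Both are established cell lines, and in bulk RNA fewer cells of a kind and less RNA per cell cannot be told apart.

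In the normalized values the array medians lay between 3.71 and 3.85 log2 units, and arrays of 1 group correlated at 0.984 to 0.995. Normalization makes arrays alike, so these medians cannot show whether the raw signals were alike. The medians were 3.71 to 3.74 in HEP3B with DAAD2 and 3.77 to 3.79 in HEP3B with DMSO. Of 5 hepatocyte markers, all 5 were above the array median on every DMSO array of HEP3B and 3 on every DMSO array of SNU449, where ALB was below it on all 3. ALB averaged 14.53 log2 units in DMSO-treated HEP3B and 3.18 in DMSO-treated SNU449, and the other 4 averaged 8.53 to 13.19 in HEP3B and 4.11 to 5.17 in SNU449. Of 4 mesenchymal markers, AXL averaged 3.44 in DMSO-treated HEP3B and 10.96 in DMSO-treated SNU449, VIM 10.24 and 13.94, CDH2 7.84 and 8.25, and FN1 11.56 and 10.75. Of 3 leukocyte markers PTPRC was below the median on all arrays, CD14 was below it in SNU449 alone (5.37 in DMSO-treated HEP3B and 3.32 in DMSO-treated SNU449) and CD3E was above it on all arrays. Of 4 endothelial markers CDH5 was below the median on all arrays, VWF lay around it, and PECAM1 and TEK were above it. The 3′ minus 5′ signal of GAPDH, a measure of RNA quality, was 1.99 log2 units on SNU449 DAAD2 replicate 2 and between 0.34 and 0.97 on the other SNU449 arrays. It was 1.51 on HEP3B DMSO replicate 1 and between 0.45 and 1.05 on the other HEP3B arrays. The same measure of ACTB ranged from 1.82 on SNU449 DMSO replicate 2 to 3.27 on HEP3B DAAD2 replicate 3.

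Members KLF4, KLF2 and KLF6 are shown by the bases in front of their transcription start, since KLF4 was the member called after DAAD2 and KLF2 and KLF6 are its relatives among the genes that respond quickly to outside signals. The 250 bases before the start are given 5′ to 3′ on the gene's strand (RefSeq, GRCh38.p14), with GC boxes (GGGCGG on either strand) in capitals.
KLF4: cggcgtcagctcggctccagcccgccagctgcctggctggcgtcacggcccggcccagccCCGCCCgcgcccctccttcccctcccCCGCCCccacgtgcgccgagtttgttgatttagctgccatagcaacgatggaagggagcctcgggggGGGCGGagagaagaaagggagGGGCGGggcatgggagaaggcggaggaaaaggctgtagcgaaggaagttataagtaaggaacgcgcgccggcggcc
KLF2: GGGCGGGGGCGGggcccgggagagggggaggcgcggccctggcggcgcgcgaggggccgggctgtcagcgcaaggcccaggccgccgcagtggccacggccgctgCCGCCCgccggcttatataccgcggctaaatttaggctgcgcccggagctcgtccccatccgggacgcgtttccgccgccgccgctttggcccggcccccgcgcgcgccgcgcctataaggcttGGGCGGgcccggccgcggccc
KLF6: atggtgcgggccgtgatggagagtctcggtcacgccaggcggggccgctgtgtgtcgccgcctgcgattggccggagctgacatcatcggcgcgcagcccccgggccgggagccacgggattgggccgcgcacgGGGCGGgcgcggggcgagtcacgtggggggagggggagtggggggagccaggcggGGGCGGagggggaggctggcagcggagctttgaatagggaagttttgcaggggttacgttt
The KLF4 window is chr9:107489770-107490019 on the minus strand, the KLF2 window is chr19:16324576-16324825 on the plus strand and the KLF6 window is chr10:3785210-3785459 on the minus strand. KLF4 held 4 matches to the GC box, KLF2 held 4 and KLF6 held 2, and 42.6% of 35116 windows of this length hold at least 1. The CACCC box (CACCC on either strand), present in 54.7% of all windows, had no match in these 3 windows. A match to the binding motif of MEF2, a factor downstream of the kinase ERK5, was found in the KLF2 window, and such a match is present in 2.8% of all windows. The letters of the AP-1 site (TGANTCA, in 6.57% of all windows), of the cyclic AMP response element (TGACGTCA, in 1.65%) and of the CArG box (in 1.16%) were not in these 3 windows. Both strands were searched for every motif, and no GC box overlapped a CACCC box here. In all, 8 of the 10 genes had a window in the RefSeq table.

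Of the 29 probe sets, 18 lay above the array median on all 12 arrays, 5 on some and 6 on at most 1 array. The 6 dim ones belong to KLF9, KLF11 and KLF13, and each of these genes also had a probe set above the median on all arrays. Each gene is described first by its brightest probe set, averaged over all groups. All levels below are log2 RMA signals, and they are compared between groups for the same probe set only.

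**Figure D1:**
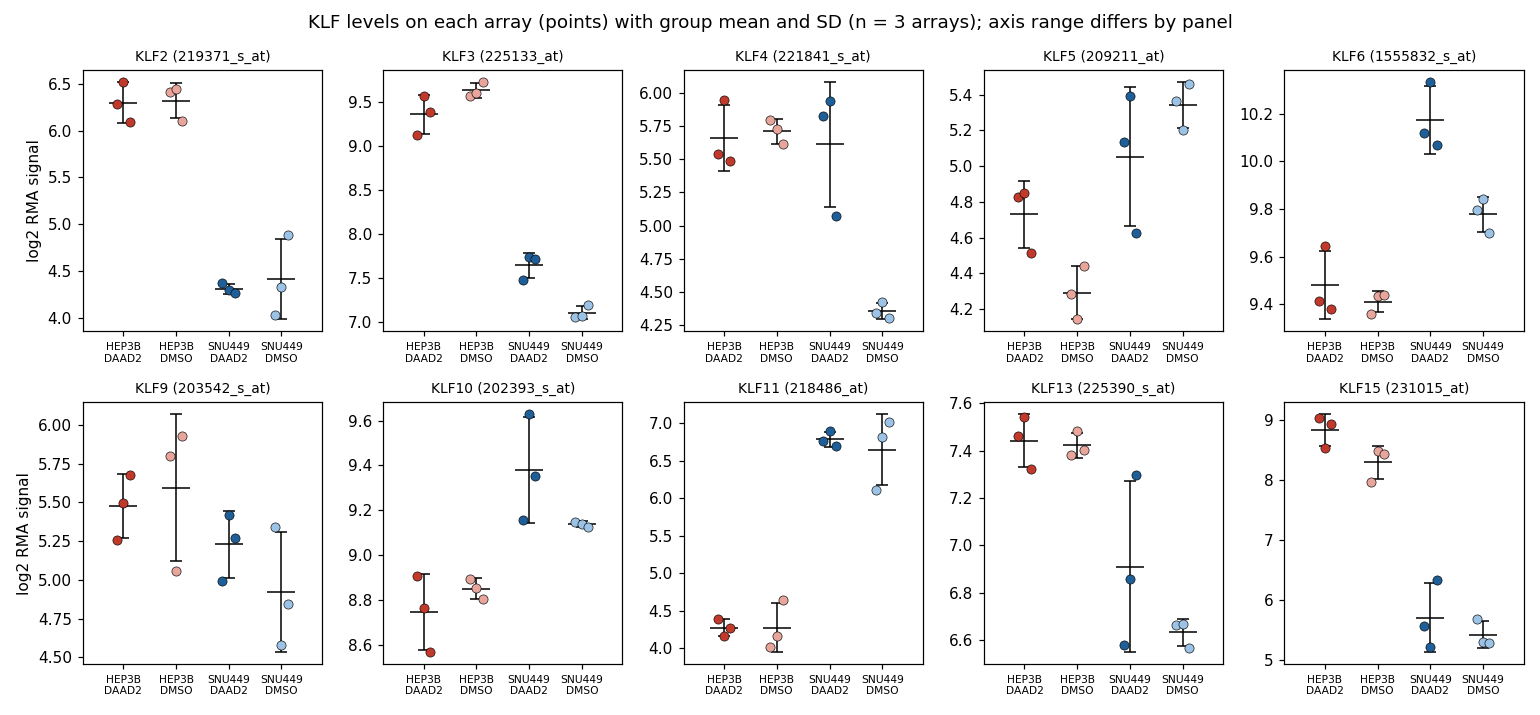
Levels of the 10 KLF genes in log2 RMA signal on the vertical axis, for HEP3B with DAAD2, HEP3B with DMSO, SNU449 with DAAD2 and SNU449 with DMSO from left to right; points are arrays, and the bars give the mean and SD of 3 arrays. KLF4 in SNU449 lies between 5.07 and 5.94 with DAAD2 and between 4.30 and 4.42 with DMSO, while the HEP3B groups overlap.

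After DAAD2, KLF4 was the only member called in either line, at an adjusted p under 0.05 over all tested probe sets, and it was higher in SNU449. KLF4 is a factor known for growth arrest and as a component of the reprogramming mixture for stem cells. Its probe set 221841_s_at had 5.83, 5.94 and 5.07 in SNU449 with DAAD2 and 4.34, 4.42 and 4.30 in SNU449 with DMSO. The groups did not overlap, and replicate 3 was the lowest of the DAAD2 arrays. The levels in SNU449 with DMSO were not far above the medians of these arrays (3.79 to 3.85), so the size of the difference is uncertain. The difference was 1.26 on the log2 scale (SE 0.21, 95% interval 0.78 to 1.73), a 2.39-fold higher level, with an adjusted p of 0.0270 by limma. The sign of this and of every other SNU449 value rests on the sample labels, and the study's supplementary list for SNU449 heads its mean columns the other way round. The comparison of the DMSO-treated lines and the difference between the responses use the same SNU449 arrays. Their sizes and calls therefore rest on these labels too.

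In HEP3B the same KLF4 probe set had 5.54, 5.95 and 5.49 with DAAD2 and 5.79, 5.72 and 5.61 with DMSO. These groups overlapped, with a difference of -0.05 (95% interval -0.36 to 0.26, adjusted p 0.896). The means of HEP3B with DAAD2 (5.66), HEP3B with DMSO (5.71) and SNU449 with DAAD2 (5.61) were within each other's spread, and SNU449 with DMSO (4.36) stood below them. The response in HEP3B minus that in SNU449 was -1.31 (SE 0.27, adjusted p 0.0276). The second KLF4 probe set, 220266_s_at, lay close to the array median at means of 4.13 in SNU449 with DAAD2 and 3.81 in SNU449 with DMSO, and its difference of 0.31 had an adjusted p of 0.476.

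The KLF4 call in SNU449 was sensitive to single arrays, although its size was not. It was lost without DMSO replicate 1 (1.25, adjusted p 0.0852), DMSO replicate 2 (1.29, 0.112), DMSO replicate 3 (1.23, 0.133) or DAAD2 replicate 1 (1.15, 0.122), and it was kept without DAAD2 replicate 2 (1.10, 0.0445) or DAAD2 replicate 3 (1.53, 0.00468). With the GAPDH 3′ minus 5′ signal as a covariate the difference was 1.13 (adjusted p 0.0470). Without moderation of the variance the adjusted p was 0.328. The difference between the lines' KLF4 responses ranged from -1.58 to -1.15 when each of the 12 arrays was left out in turn, and its call was kept only without SNU449 DMSO replicate 1, SNU449 DAAD2 replicate 2 or 3, HEP3B DMSO replicate 3 or HEP3B DAAD2 replicate 2, so that it was lost in 7 of these 12 cases (adjusted p up to 0.0790). Without moderation its adjusted p was 0.127.

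KLF3, a repressor that works through the co-repressor CtBP, had responses of opposite sign in the lines by its brightest probe set, and the difference between these responses was called. For 225133_at the levels were 7.48, 7.74 and 7.72 in SNU449 with DAAD2 and 7.06, 7.06 and 7.19 in SNU449 with DMSO. These groups did not overlap, with a difference of 0.54 (SE 0.12) and an adjusted p of 0.0687, which missed the threshold. It passed with all 12 arrays in 1 fit (adjusted p 0.0270) and after cyclic loess (0.56, adjusted p 0.0465), and not in the other settings. In HEP3B they were 9.13, 9.57 and 9.40 with DAAD2 and 9.57, 9.61 and 9.74 with DMSO, groups that overlapped at a difference of -0.27 (adjusted p 0.356). The response in HEP3B minus that in SNU449 was -0.81 (SE 0.17, adjusted p 0.0302). This call was kept without SNU449 DAAD2 replicate 1 or 2 or HEP3B DAAD2 replicate 2, and lost in the other 9 of 12 cases with 1 array left out (-0.86 to -0.70, adjusted p up to 0.0790). It was also lost with the replicate block (adjusted p 0.0680), without moderation (0.0879) and with the mean of the KLF3 probe sets (-0.34, adjusted p 0.265).

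The other KLF3 probe sets differed less between the lines. For 225140_at the difference was 0.31 in HEP3B (adjusted p 0.234) and 0.55 in SNU449 (adjusted p 0.138), and the DAAD2 arrays lay above the DMSO arrays in both lines. For 219657_s_at the differences were -0.06 in HEP3B and 0.25 in SNU449, and for 222913_at they were -0.02 and -0.01. None of these 3 probe sets was called in either line or in the difference between the lines, although 225140_at passed in SNU449 with all 12 arrays in 1 fit (adjusted p 0.0393).

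**Figure D2:**
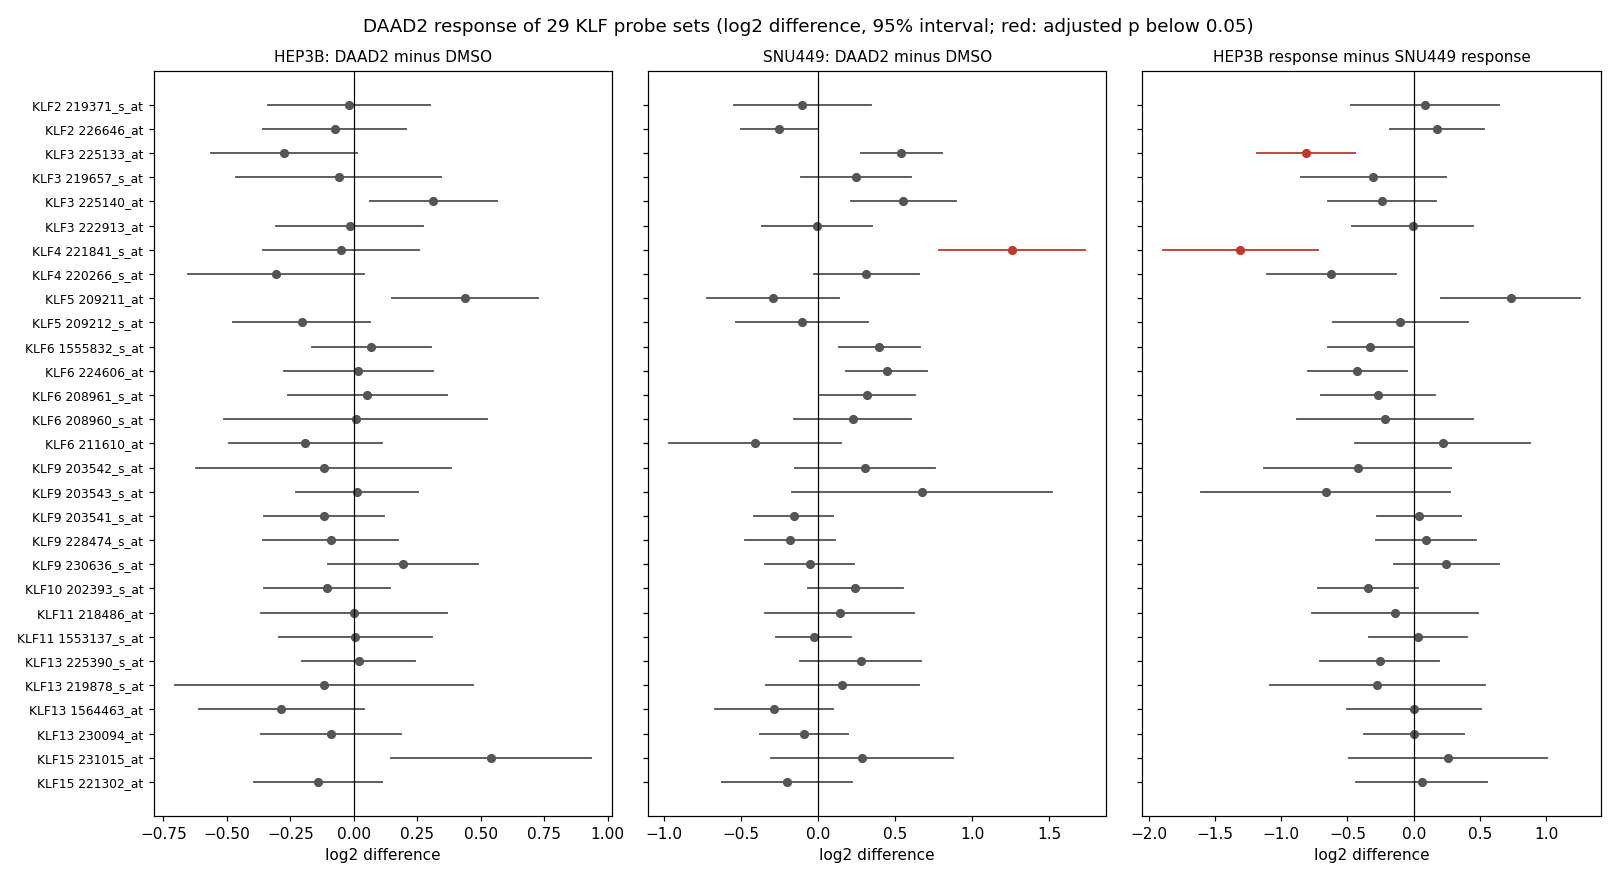
DAAD2 response of the 29 KLF probe sets as log2 differences with 95% intervals, in HEP3B (left), in SNU449 (middle) and as the HEP3B response minus the SNU449 response (right); red marks an adjusted p under 0.05. The red points are KLF4 221841_s_at in SNU449 (1.26) and KLF4 221841_s_at (-1.31) and KLF3 225133_at (-0.81) in the difference between the lines.

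KLF6, a factor known from injury responses and as a candidate tumour suppressor in liver, was measured by 5 probe sets. By 1555832_s_at it had 10.12, 10.34 and 10.07 in SNU449 with DAAD2 and 9.79, 9.84 and 9.70 in SNU449 with DMSO. The DAAD2 arrays were all above the DMSO arrays, and the difference of 0.40 (SE 0.12) had an adjusted p of 0.175. The probe sets 224606_at (0.44, adjusted p 0.122) and 208961_s_at (0.32, adjusted p 0.398) also had groups that did not overlap, while 208960_s_at (0.22) and 211610_at (-0.41), close to the array median, overlapped. In HEP3B the 5 probe sets differed by -0.19 to 0.07, and all groups overlapped.

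KLF5, a growth-promoting factor of epithelia, had 4.83, 4.85 and 4.51 in HEP3B with DAAD2 and 4.29, 4.14 and 4.44 in HEP3B with DMSO by 209211_at. The groups were apart, at a difference of 0.44 (SE 0.13, adjusted p 0.167). The same probe set differed by -0.29 in SNU449 (adjusted p 0.644), and the difference between the responses was 0.73 (adjusted p 0.165), which passed the threshold with 1 array left out only without SNU449 DAAD2 replicate 2 (0.90, adjusted p 0.0407). The second probe set, 209212_s_at, differed by -0.21 in HEP3B and -0.10 in SNU449, so the HEP3B sign was not shared by both probe sets.

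KLF15, a factor of gluconeogenesis and amino acid breakdown in liver that glucocorticoids induce, had 9.04, 8.54 and 8.93 in HEP3B with DAAD2 and 7.97, 8.48 and 8.43 in HEP3B with DMSO by 231015_at. Every DAAD2 array lay above every DMSO array, and the difference of 0.54 (SE 0.17) had an adjusted p of 0.202. In SNU449 it had 5.57, 5.20 and 6.33 with DAAD2 and 5.67, 5.30 and 5.28 with DMSO, groups that overlapped at a difference of 0.28 (adjusted p 0.783). The second KLF15 probe set, 221302_at, differed by -0.14 in HEP3B and -0.20 in SNU449.

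The remaining members were not called after DAAD2 in either line. KLF2, a factor induced by flow in endothelium, differed by -0.02 in HEP3B (95% interval -0.34 to 0.30) and -0.10 in SNU449 (95% interval -0.55 to 0.34). KLF10 and KLF11, early response genes of TGF-beta, differed by -0.10 and -0.0004 in HEP3B and by 0.24 and 0.14 in SNU449. The KLF10 arrays were 9.16, 9.63 and 9.35 in SNU449 with DAAD2 and 9.15, 9.14 and 9.12 in SNU449 with DMSO, so that these groups were apart by a narrow margin. KLF9 and KLF13, which recruit the co-repressor SIN3A, differed by -0.12 and 0.02 in HEP3B and by 0.31 and 0.28 in SNU449. KLF9 by 203543_s_at had 4.61, 4.76 and 3.15 in SNU449 with DAAD2 and 3.45, 3.30 and 3.74 in SNU449 with DMSO, with replicate 3 of the DAAD2 arrays below every DMSO array.

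Counted over the family, no KLF probe set was called by limma in HEP3B, where 0.00% of all probe sets were called higher and 0.00% lower. At an unadjusted p under 0.05, 3 of 29 passed in HEP3B, all higher, against 15.0% of all probe sets in either direction. The DAAD2 arrays lay all above the DMSO arrays for 3 probe sets and all below for none, against 11.0% and 9.99% of all probe sets. In SNU449, 1 of 29 was called higher and none lower, against 1.04% and 0.417% of all probe sets. At an unadjusted p under 0.05, 6 passed in SNU449, all higher, against 11.8% of all probe sets in either direction, and they were 2 probe sets of KLF3, 1 of KLF4 and 3 of KLF6. Probe sets of 1 gene share their RNA and are not separate observations. Groups lay apart in 7 probe sets that were higher and 2 that were lower in SNU449, against 8.34% and 7.76% of all probe sets.

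The median response of the 29 probe sets was -0.05 in HEP3B, against -0.02 over all probe sets, and 0.16 in SNU449, against 0.01 over all probe sets. With 1 probe set per gene, 4 of 10 genes were above 0 in HEP3B and 8 of 10 in SNU449. The medians of the 10 genes were -0.01 and 0.28, against -0.0073 and 0.0034 over all genes. In the difference between the responses 2 KLF probe sets were called lower and none higher, against 0.797% and 1.21% of all probe sets. Over all probe sets these calls were 661 higher and 435 lower, and after quantile normalization they were 467 higher and 592 lower. The KLF4 and KLF3 calls kept their direction and threshold after that normalization.

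**Figure D3:**
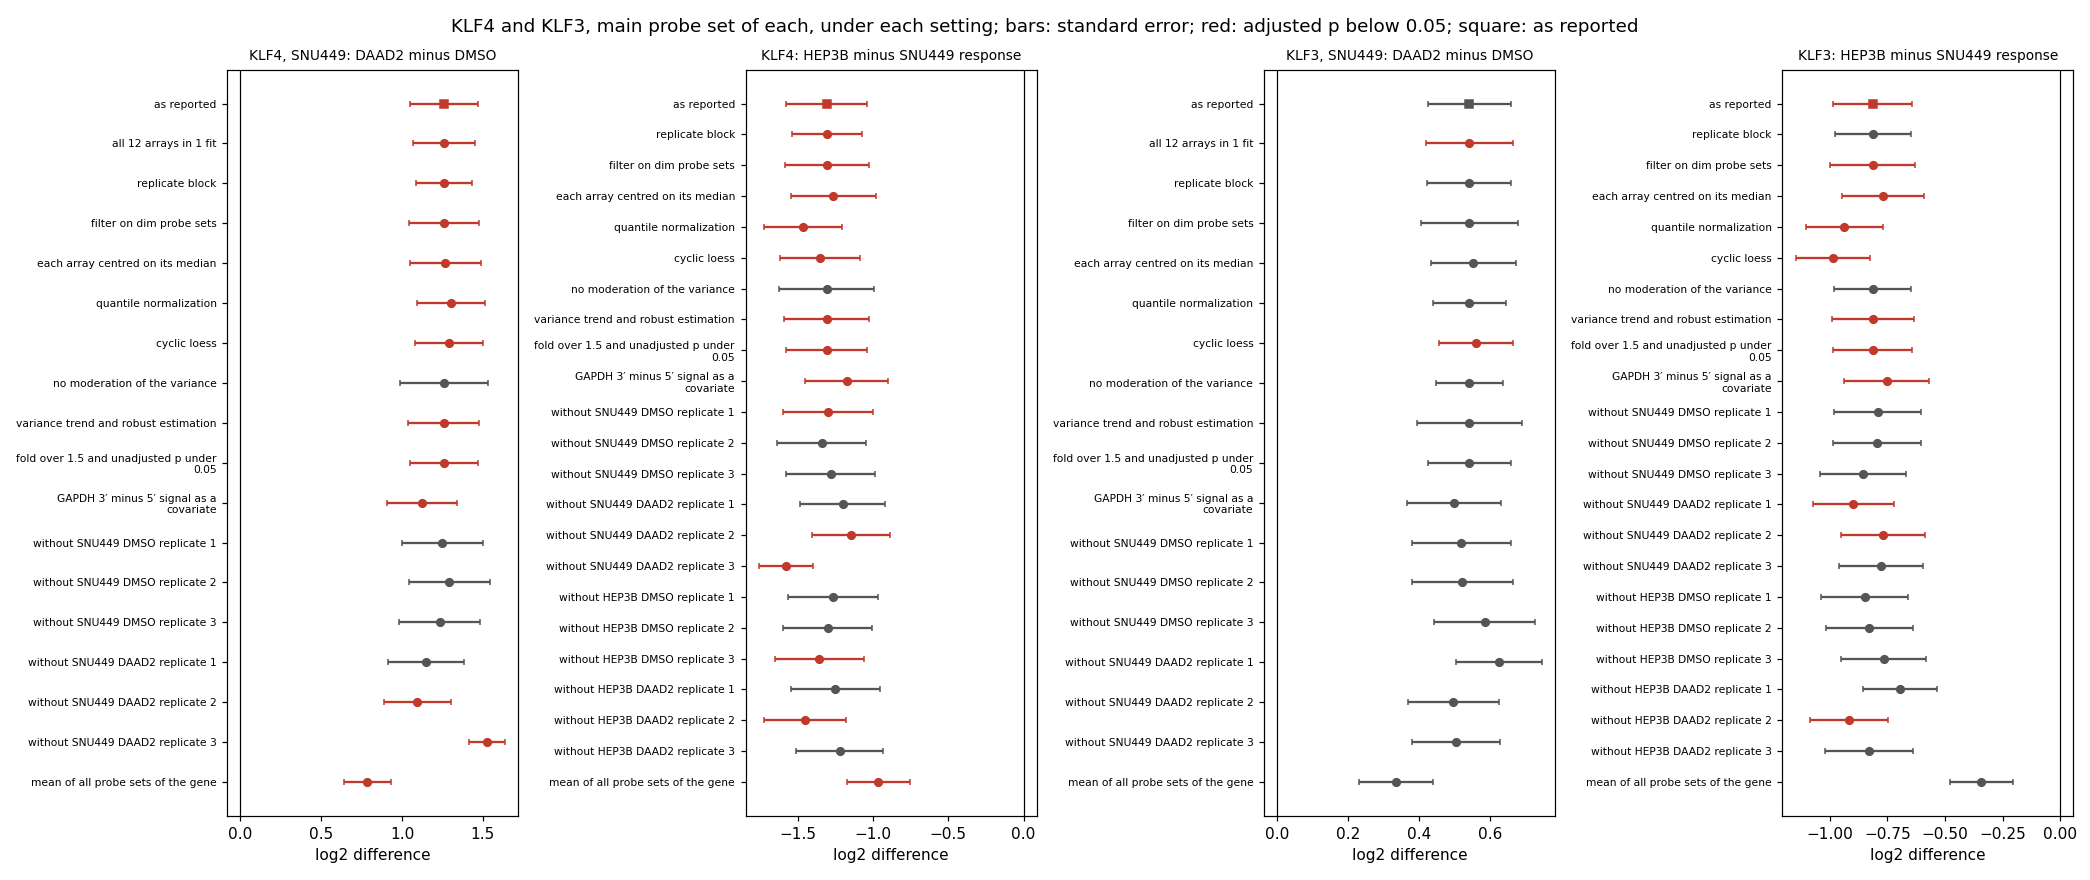
KLF4 221841_s_at and KLF3 225133_at under each setting, as log2 differences with standard errors, each with a panel for the response in SNU449 and to its right a panel for the HEP3B response minus the SNU449 response; red marks an adjusted p under 0.05, and the square is the value as reported. KLF4 in SNU449 stays between 0.79 and 1.53 in every setting while the call comes and goes.

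Between the DMSO-treated lines each of the 10 genes had at least 1 called probe set, against 46.5% of all genes. A gene with more probe sets has more chances of a call, and 9 of the members have 2 to 5 of them, a number at which 59.3% of all genes had at least 1. HEP3B was higher than SNU449 in 9 of 29 probe sets and lower in 7, against 14.5% and 14.8% of all probe sets. With 1 probe set per gene, KLF15, KLF3, KLF2, KLF4 and KLF13 were higher in HEP3B, and KLF11, KLF5, KLF6 and KLF10 were lower, which is 5 and 4 of 10 against 21.4% and 19.4% of all genes. The brightest probe set of every member lay above the array median on all arrays, while all genes include dim ones. These shares are therefore not matched for brightness. The groups did not overlap for 11 probe sets that were higher and 7 that were lower in HEP3B, against 20.2% and 21.4% of all probe sets. The median over the 29 probe sets was -0.03, against -0.01 over all probe sets. All differences between the DMSO-treated lines, in sign and size, rest on the SNU449 sample labels.

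KLF15 showed the widest gap among the gene probe sets, with means of 8.29 ± 0.28 in DMSO-treated HEP3B and 5.41 ± 0.22 in DMSO-treated SNU449 (SD, n = 3 each). The difference was 2.88 (SE 0.17, adjusted p 1.86e-06), a 7.35-fold higher level in HEP3B. The other KLF15 probe set, 221302_at, differed by -0.10 (adjusted p 0.636), so the gap rests on 231015_at. KLF3 had means of 9.64 ± 0.09 in DMSO-treated HEP3B and 7.10 ± 0.07 in DMSO-treated SNU449 (SD, n = 3 each), a difference of 2.54 (adjusted p 1.43e-07). All 4 KLF3 probe sets were higher in HEP3B, by 0.43 to 2.54, and the smallest of these, 222913_at, lost its call without SNU449 DMSO replicate 3 (0.34, adjusted p 0.0739) or HEP3B DMSO replicate 2 (0.38, 0.0594).

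KLF2 had 6.41, 6.44 and 6.11 in DMSO-treated HEP3B and 4.03, 4.33 and 4.88 in DMSO-treated SNU449. The groups were far apart, with a difference of 1.90 (SE 0.20, adjusted p 0.000102), while the dimmer 226646_at differed by 0.19 (adjusted p 0.239). The lowest KLF2 value in SNU449, 4.03, was close to the median of its array (3.85). KLF4 was 1.35 higher in HEP3B (adjusted p 7.17e-06) by 221841_s_at and 0.38 higher by 220266_s_at (adjusted p 0.0740), which passed without HEP3B DMSO replicate 2 (0.47, 0.0429) or after cyclic loess (0.42, 0.0483). KLF13 was 0.79 higher (adjusted p 0.000163) by 225390_s_at and 0.34 higher by 219878_s_at (adjusted p 0.407), and the mean of its probe sets was 0.26 higher (adjusted p 0.128). KLF9 was 0.67 higher by 203542_s_at (adjusted p 0.0877), with overlapping groups, and 1.68 higher by 203543_s_at (adjusted p 1.18e-05), which was below the median on all 3 DMSO arrays of SNU449. The call for 203542_s_at was gained without SNU449 DMSO replicate 1 (0.88, adjusted p 0.0363) or HEP3B DMSO replicate 2 (0.94, 0.0109), and with all 12 arrays in 1 fit (0.0430) or the mean of the KLF9 probe sets (0.42, 0.0180).

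KLF11 was the member with the widest gap in the other direction. It had 4.01, 4.16 and 4.64 in DMSO-treated HEP3B and 6.11, 6.81 and 7.02 in DMSO-treated SNU449 by 218486_at. The difference was -2.38 (SE 0.24, adjusted p 7.48e-05), and the dim 1553137_s_at differed by 0.0017. The HEP3B levels by 218486_at were not far above the medians of these arrays (3.77 to 3.79), so the size of the gap is uncertain. KLF5 was lower in HEP3B by both probe sets, at -1.05 (adjusted p 0.000121) and -1.35 (adjusted p 9.13e-05).

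KLF6 was lower in HEP3B in 3 called probe sets, at -0.37 (adjusted p 0.0153), -0.43 (0.0199) and -0.66 (0.00303). The first of these, 1555832_s_at, lost its call without SNU449 DMSO replicate 2 (adjusted p 0.0606) or HEP3B DMSO replicate 1 (0.0550). The second, 224606_at, lost it without SNU449 DMSO replicate 1 (0.0648) or replicate 3 (0.0552), or HEP3B DMSO replicate 1 (0.0733) or replicate 2 (0.0624). KLF10 was lower in HEP3B at -0.29 (adjusted p 0.0383), a call that did not survive leaving out any 1 of the 6 arrays (adjusted p 0.0669 to 0.103), nor with all 12 arrays in 1 fit (0.108), centring (0.0669) or the GAPDH covariate (0.0676).

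**Figure D4:**
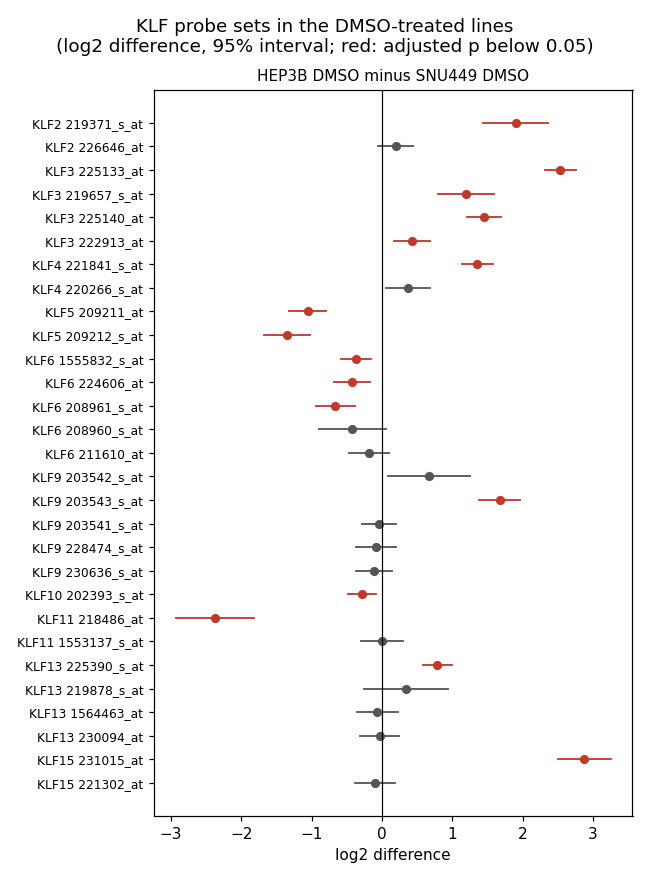
Difference between DMSO-treated HEP3B and DMSO-treated SNU449 for the 29 KLF probe sets, in log2 units with 95% intervals; red marks an adjusted p under 0.05. Points to the right are higher in HEP3B, with KLF15 231015_at at 2.88, and points to the left are lower in HEP3B, with KLF11 218486_at at -2.38.

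Ordered over the 4 groups, the members fell into several patterns by their main probe set. For KLF2 and KLF11 the lines were apart, and DAAD2 and DMSO arrays overlapped within each line. For KLF15 both HEP3B groups lay above both SNU449 groups, and HEP3B with DAAD2 was above HEP3B with DMSO. For KLF6 the order was SNU449 with DAAD2, SNU449 with DMSO and then the HEP3B groups, which overlapped with each other. For KLF13 the HEP3B groups overlapped with each other, and SNU449 with DAAD2 (6.58, 6.86 and 7.30) reached almost to them. For KLF3 the HEP3B groups overlapped and lay above SNU449 with DAAD2, which lay above SNU449 with DMSO. For KLF5 SNU449 with DAAD2 overlapped with SNU449 with DMSO above it and with HEP3B with DAAD2 below it, and HEP3B with DMSO was the lowest group. For KLF10 SNU449 with DAAD2 and SNU449 with DMSO lay above the HEP3B groups, which overlapped. For KLF9 every pair of neighbours in the order overlapped.

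The regulators and partners of the family were followed by lists. These lists were chosen with earlier results of these data known, so their shares against all genes are a description and no test. The immediate early genes, which like KLF4 respond quickly to growth factors and stress, had 4 of 9 called higher in SNU449, against 1.82% of all genes. None was called in HEP3B, where 0.00% of all probe sets were called, so the absence of calls there says nothing about these genes. At an unadjusted limma p under 0.05, 3 of 9 were lower in HEP3B and none higher, against 15.0% of all probe sets in either direction. The medians of this list were -0.23 in HEP3B and 0.60 in SNU449, against -0.01 and 0.0034 over all genes. FOS, a component of AP-1, averaged 5.22 in SNU449 with DAAD2 and 3.34 in SNU449 with DMSO (1.88, adjusted p 0.00789). On the DMSO arrays of SNU449 it was below the array median, so the size of every difference against them is uncertain. EGR1, a zinc finger factor of the same response, was higher by 1.67 (adjusted p 0.00586), JUNB by 1.51 (adjusted p 0.00229) and JUN by 0.60 (adjusted p 0.0326). The difference between the responses was -2.40 for FOS, -1.80 for JUNB, -1.71 for EGR1 and -0.83 for JUN, each called, and 1.46% of all genes were called lower in this comparison. In SNU449 the calls of EGR1 and JUNB were kept without any 1 array, that of FOS was lost without DMSO replicate 3 (adjusted p 0.0576), and that of JUN was kept only without DAAD2 replicate 3 (0.56 to 0.65 over the 6 cases). With the GAPDH 3′ minus 5′ signal as a covariate the JUN call was lost (0.61, adjusted p 0.0557). In the difference between the responses JUN lost its call without SNU449 DAAD2 replicate 1 (adjusted p 0.0505) or HEP3B DMSO replicate 1 (0.0522), and the other 3 calls were kept without any 1 array.

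Among 7580 genes, those most like KLF4 over the 12 arrays after subtraction of each line's mean were DUSP1, with a Pearson r of 0.966, LINC02532 with 0.963 and CDH1 with 0.960. DUSP1 is a phosphatase of MAP kinases and CDH1 is E-cadherin. These points share the same arrays and the same treatment difference in SNU449, and the values are a description. The 7580 genes were those with a mean above the median of the array medians and an SD within lines above a set limit. That SD includes the difference between DAAD2 and DMSO, so the filter favours genes that differ between them.

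Of 14 genes described as KLF targets, 2 were called higher and 1 lower in SNU449, against 1.82% and 0.561% of all genes. None was called in HEP3B, where 0.00% of all probe sets were called. At an unadjusted limma p under 0.05, 2 were higher and 2 lower in HEP3B, against 15.0% of all probe sets in either direction. The medians of the 14 genes were -0.07 in HEP3B and 0.02 in SNU449. PLAU, the urokinase activator, averaged 10.36 in SNU449 with DAAD2 and 9.53 in SNU449 with DMSO (0.83, adjusted p 0.0147). LGALS3, the lectin galectin, was higher by 0.81 (adjusted p 0.0147). CCND1, a cyclin of the G1 phase, averaged 7.54 in SNU449 with DAAD2 and 8.80 in SNU449 with DMSO (-1.26, adjusted p 0.0252). These 3 calls were each lost without DMSO replicate 2, DMSO replicate 3 or DAAD2 replicate 1, and PLAU also without DMSO replicate 1. With 1 array left out the values were 0.77 to 0.89 for PLAU, 0.75 to 0.87 for LGALS3 and -1.47 to -1.11 for CCND1. The difference between the responses was called for CCND1 (2.11, adjusted p 0.00680) and for LGALS3 (-0.73, adjusted p 0.0183), while 1.82% of all genes were called higher and 1.46% lower. LGALS3 lost its call without SNU449 DMSO replicate 3, SNU449 DAAD2 replicate 1 or HEP3B DAAD2 replicate 1 or 2 (adjusted p up to 0.0592).

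No gene of the other lists was called after DAAD2 in either line. In HEP3B 0.00% of all probe sets were called, and in SNU449 1.82% of all genes were called higher and 0.561% lower. With shares this low, the absence of calls in short lists says little about their genes. The lists were 7 other KLF genes, 8 SP genes, 9 cofactors, 4 ubiquitin ligases of KLF proteins, 5 genes of the ERK5 and MEF2 pathway, 7 of the TGF-beta pathway and 3 of the glucocorticoid response. Their medians in SNU449 lay between -0.24 for the cofactors and 0.15 for the TGF-beta pathway.

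Between the DMSO-treated lines each of these lists held called genes, where 21.4% of all genes were called higher in HEP3B and 19.4% lower by 1 probe set per gene. In the TGF-beta pathway, which induces KLF10 and KLF11, 6 of 7 genes were lower in HEP3B and none higher, among them the signal transducer SMAD3 (-2.82), the receptor TGFBR2 (-1.80), the inhibitor SMAD7 (-1.80) and the ligand TGFB1 (-1.16). In the ERK5 and MEF2 pathway, which induces KLF2 and KLF4, 3 of 5 were higher and 1 lower in HEP3B, with the kinase ERK5 (MAPK7) at -3.45, MEF2C at 2.42, MEF2A at 0.77 and the ERK5 kinase MAP2K5 at 0.69. MEF2C was below the median on all SNU449 arrays. Of the cofactors, 2 of 9 were higher and 2 lower, shares close to those of all genes, and CTBP2, a CtBP paralog that partners KLF3, differed by -3.92 while CTBP1 differed by 0.51. The acetyltransferase KAT2B (-1.80) was lower and the deacetylase HDAC1 (0.95) higher.

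Of the ubiquitin ligases, WWP1 (1.74) and FBXW7 (0.73), both known to act on KLF5 protein, were higher in HEP3B. Of the glucocorticoid response genes, the receptor NR3C1 (-1.52) and its target FKBP5 (-0.50) were lower and the target TSC22D3 (2.07) was higher, and FKBP5 lost its call without SNU449 DMSO replicate 1 (-0.51, adjusted p 0.0504), SNU449 DMSO replicate 3 (-0.44, 0.0875) or HEP3B DMSO replicate 2 (-0.37, 0.0538). Of the SP genes, close relatives of the family, SP4 (2.39) and SP8 (2.15) were higher and SP2 (-0.71) and SP1 (-0.65) lower, and SP8 was below the median on all SNU449 arrays. Of the other KLF genes only KLF12 was called, at -0.76, and not without SNU449 DMSO replicate 3 (-0.66, adjusted p 0.0647). The immediate early genes had 7 of 9 higher and 1 lower in HEP3B, against 21.4% and 19.4% of all genes, with FOS at 6.01, ATF3 at 3.75, EGR1 at 2.84 and IER3 at -1.46. The described targets had 4 of 14 higher and 4 lower, not far above these shares of all genes. Among these targets were PLAU at -5.56, CCND1 at -3.25, PDGFA at 2.85 and MAOA at 1.89. PLAU lay around the array median in HEP3B.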

How the data were processed

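Total RNA of 12 cell cultures was hybridised to Affymetrix arrays, 3 for each of 4 groups taken from the sample labels. The deposited values are log2 signals that the authors made with RMA, a method of background correction, quantile normalization and probe set summary, per the labels. The study's methods name BRB Array Tools for quality control and normalization. Array signals give no read depth, and the number of arrays limits the precision. The authors' own lists of fold changes and p-values were not used.

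The table held 54675 probe sets, of which 62 control probe sets were left out and 54613 were tested. The platform annotation gave 1 symbol to 41091 of them, several to 1801 and none to 11721. Differences were fitted with limma 3.58.1 in R 4.3.3 (lmFit and eBayes), within each line (6 arrays), as the HEP3B response minus the SNU449 response (12 arrays) and between the DMSO-treated lines (6 arrays), with Benjamini-Hochberg adjustment over all tested probe sets and a threshold of 0.05. All probe sets of the members were named, and the probe set with the highest mean stood for a gene. From each list up to 4 called genes with the largest differences were named, and the 3 genes most like a called member were given. The members and lists were chosen with earlier results of these data known. The fitting was tested on simulated data. Promoter windows came from RefSeq and were searched with Python 3.11.15.

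Alternatives were 1 fit over all 12 arrays, the replicate number as a block, a filter on dim probe sets, other scalings, no moderation, a variance trend, a threshold of 1.5-fold with an unadjusted p, the GAPDH 3′ minus 5′ signal as a covariate, the mean of a gene's probe sets, and leaving out each array. Those for list genes were chosen after seeing the data.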

Additional observations from a re-analysis of the deposited data

Results flagged for a closer look

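The difference between the lines' responses to DAAD2 was called by the test of the difference itself for 8 probe sets named above. With 1 array left out, the call was lost in 9 of 12 cases for KLF3, 7 for KLF4, 4 for LGALS3 and 2 for JUN. Without moderation of the variance those of KLF3, KLF4 and CCND1 were lost. The response in HEP3B minus that in SNU449 was -1.31 for KLF4, -0.81 for KLF3, -2.40 for FOS, -1.80 for JUNB, -1.71 for EGR1, -0.83 for JUN, 2.11 for CCND1 and -0.73 for LGALS3, all on the log2 scale. The dose was 2 µM in HEP3B and 20 µM in SNU449, so line and dose cannot be told apart in these values. Their signs and sizes also rest on the SNU449 sample labels.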

How the results depend on the processing

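The number of KLF probe sets called higher after DAAD2 in SNU449 (1) was 3 with all 12 arrays in 1 fit (KLF4, KLF3 225133_at and KLF3 225140_at), 2 with cyclic loess (KLF4 and KLF3 225133_at), 0 without moderation and 0 to 2 with 1 array left out. The number called lower in the difference between the responses (2) was 1 with the replicate block, 0 without moderation and 0 to 2 with 1 array left out, and the number called higher there (0) was 1 with the 1.5-fold threshold and 0 to 1 with 1 array left out. Between the DMSO-treated lines the number lower (7) was 4 with the 1.5-fold threshold and 4 to 6 with 1 array left out. Deviations of same-numbered arrays from their group means correlated at -0.27 to 0.09 in HEP3B and -0.08 to -0.01 in SNU449. Between the DMSO-treated lines these correlations were 0.02 to 0.21. Such correlations over whole arrays cannot exclude that same-numbered arrays shared a batch, and the labels do not say. With the replicate block, KLF4 in SNU449 had an adjusted p of 0.0498, and KLF10 between the lines had 0.0749 and KLF9 203542_s_at 0.0111. In SNU449 the block also ended the calls of CCND1, PLAU, LGALS3 and JUN (adjusted p 0.0654, 0.0649, 0.0508 and 0.102), and in the difference between the responses those of KLF3, LGALS3 and JUN (0.0680, 0.0668 and 0.0696). Without moderation all 8 calls named in SNU449 were lost, with adjusted p from 0.126 for JUNB to 0.328 for KLF4. It also ended those of KLF3, KLF4 and CCND1 in the difference between the responses (0.0879, 0.127 and 0.0667), and between the lines those of KLF3 222913_at (0.0649), KLF6 224606_at (0.0686), FKBP5 (0.110), KLF12 (0.127), SP2 (0.0503) and TGFB1 (0.0529). In HEP3B, centring each array called 61 probe sets higher and 9 lower over the whole table, against 0 and 0. Only uncalled KLF values changed sign. In HEP3B these were KLF2 (0.035), KLF4 (0.0047) and KLF11 (0.054) with centring, KLF6 (-0.046), KLF11 (0.028) and KLF13 (-0.13) with quantile normalization, KLF6 (-0.081) and KLF13 (-0.10) with cyclic loess, KLF9 (0.0060) and KLF13 (-0.0021) with the GAPDH covariate, and KLF6 (-0.0089), KLF11 (0.0024) and KLF13 (-0.12) with the mean of the probe sets. In the difference between the responses they were KLF2 (-0.072) with quantile normalization and KLF15 (-0.0073) with the GAPDH covariate. With 1 array left out, HEP3B values ranged from -0.13 to 0.082 for KLF2, -0.19 to 0.035 for KLF4, -0.013 to 0.12 for KLF6, -0.39 to 0.049 for KLF9, -0.13 to 0.18 for KLF11 and -0.032 to 0.079 for KLF13. SNU449 values ranged from -0.29 to 0.13 for KLF2, -0.13 to 0.33 for KLF11 and -0.031 to 0.53 for KLF15, and the difference between the responses from -0.15 to 0.28 for KLF2 and -0.33 to 0.12 for KLF11. Where an array left an arm with 2 arrays, the spread was pooled over the remaining ones. Probe sets near the array median have little signal over background, which limits what they can show. The cause of these changes was not tested.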
